A study of Mus musculus with 12 samples.

Results

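The genes described here are 7 components of transforming growth factor beta (TGF-beta) signalling: the ligands Tgfb1, Tgfb2 and Tgfb3, the latent-ligand binding protein Ltbp1, the receptors Tgfbr1 and Tgfbr2, and the target gene Ccn2, also known as Ctgf. Members were all probe sets that the platform annotation assigned to these symbols, which gave 13 of the 22626 probe sets that were not controls, for 7 of 12393 genes with a single symbol. RNA came from ET cells, a mouse line given in the labels as cortical epithelium of fetal thymus, and was hybridised to 12 Affymetrix arrays in 6 groups of 2. The groups were 5 nM TCDD, a dioxin and ligand of the aryl hydrocarbon receptor (AhR), for 2 h, 4 h or 6 h, and the solvent 1,4-dioxane at 0.05% by volume for the same times. No genetic change was given for any group, and all groups were the same line, grown close to confluence and sampled as bulk RNA. Its question was how AhR activation alters gene expression in these cells. It called the arrays of a group biological duplicates without naming the repeated step, so p-values cover only the spread between these arrays. Groups followed the titles, which the labels of 3 arrays contradict in part: the second 4 h TCDD array has the solvent in its treatment field, and both 6 h solvent arrays have 4 h in their description.

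TGF-beta ligands are secreted in a latent complex, which binding proteins such as Ltbp1 tether to the extracellular matrix until integrins, proteases or thrombospondin release the active dimer. The active ligand binds the type II receptor Tgfbr2, which phosphorylates the type I receptor Tgfbr1, and Tgfbr1 phosphorylates Smad2 and Smad3; these enter the nucleus with Smad4 and switch on genes such as the matricellular protein Ccn2, while Smad6 and Smad7 dampen the signal. In the thymus this pathway is known to restrain the growth of thymic epithelium and to act on developing thymocytes.

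Levels are the deposited log2 values, on which 1 unit is a factor of 2; they order a probe set across arrays, and levels of different genes were not compared. Clustering cut the arrays into 4, and the largest cluster, with 7 arrays, is called the larger set. The other clusters were pooled as a smaller set of 5. They were the arrays numbered 2 at 2 h, those numbered 2 at 6 h, and the first 4 h TCDD array alone. The smaller set is therefore not a single group of like arrays, and a block for it fits a shared shift. Both 4 h solvent arrays were in the larger set. Test results of the 7 genes are therefore given also with the array set as a block, a split drawn from the measured levels themselves. The response check Cyp1a1, an enzyme induced through AhR, rose at all 3 times in limma, by 5.83 ± 0.26 (SE) on the log2 scale on average, and its level on the second 4 h TCDD array was 10.2 against 4.0 to 5.5 on the 6 solvent arrays. Of the cell type markers on the array, the filter on low values was passed by 6 of 11 cortical and 4 of 7 medullary thymic epithelial genes. Below it were the cortical Cd83, Epcam, Krt18, Ly75 and Prss16 and the medullary Cd80, Cldn4 and Tnfrsf11a. The cortical list mean was 5.55 to 5.72 on the solvent arrays and 5.54 to 5.73 on the TCDD arrays. The medullary list mean was 4.29 to 4.57 and 4.30 to 4.71. All 12 markers of fibroblasts and mesenchyme passed the filter. Their list mean was 10.26 to 10.62 on the solvent arrays and 9.66 to 10.65 on the TCDD arrays. Above the filter were 4 of 8 for thymocytes, 5 of 8 for macrophages and platelets and 1 of 7 for endothelium. The filter value of 3.98 is the 30th percentile of the mean, so 15844 of all 22626 probe sets passed by construction. The thymocyte list means were 3.88 to 4.15 and those of macrophages and platelets 4.08 to 4.45, near that value. In bulk RNA of this kind, fewer cells of a type and less RNA per cell cannot be told apart.

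Since TCDD acts through AhR, the 250 bases upstream of the annotated starts were searched for the AhR core GCGTG on both strands, using RefSeq promoters of build GRCm38.p6, which held 5 of the 7 genes in 7 promoters; Tgfb3 and Ccn2 were not matched. Of 32851 promoter windows of the same length, 28.2% held the core. Shown are the 3 promoters with a core and that of Tgfb2, whose 3 probe sets lay below the solvent mean of their time on every TCDD array; each reads 5′ to 3′ on the gene's strand, and capitals mark the core, which appears as CACGC where it lies on the other strand. The Tgfb1 window is chr7:25686752-25687001 on the plus strand, the Tgfb2 window chr1:186705990-186706239 on the minus strand, the window of the first Tgfbr1 start chr4:47352972-47353221 on the plus strand, and the Tgfbr2 window chr9:116175364-116175613 on the minus strand.
Tgfb1: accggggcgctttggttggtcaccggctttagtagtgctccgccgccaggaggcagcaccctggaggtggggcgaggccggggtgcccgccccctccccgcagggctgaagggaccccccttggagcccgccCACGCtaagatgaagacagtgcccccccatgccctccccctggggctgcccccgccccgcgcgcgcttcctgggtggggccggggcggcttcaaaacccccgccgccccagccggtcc
Tgfb2: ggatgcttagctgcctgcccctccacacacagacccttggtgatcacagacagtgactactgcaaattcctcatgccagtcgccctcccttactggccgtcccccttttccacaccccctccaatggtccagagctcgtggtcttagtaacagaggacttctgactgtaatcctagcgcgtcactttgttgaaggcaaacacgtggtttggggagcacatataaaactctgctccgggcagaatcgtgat
Tgfbr1: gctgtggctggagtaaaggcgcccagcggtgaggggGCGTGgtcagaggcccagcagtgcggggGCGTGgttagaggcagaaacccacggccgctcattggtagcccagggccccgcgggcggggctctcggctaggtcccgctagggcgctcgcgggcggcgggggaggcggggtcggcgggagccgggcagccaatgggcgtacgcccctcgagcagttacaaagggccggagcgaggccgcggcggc
Tgfbr2: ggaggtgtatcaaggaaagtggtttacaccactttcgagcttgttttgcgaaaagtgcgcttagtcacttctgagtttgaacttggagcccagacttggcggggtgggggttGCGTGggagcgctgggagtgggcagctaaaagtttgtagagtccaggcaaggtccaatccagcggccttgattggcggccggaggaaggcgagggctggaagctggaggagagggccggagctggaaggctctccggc
Tgfb1 had 1 core, 118 bases before the start, Tgfbr1 had 2, at 214 and 186 bases, and Tgfbr2 had 1, at 138 bases. Those of Tgfb1 and Tgfbr2 also lay in the longer form TNGCGTG, which contains the core and was present in 4.1% of all windows. The Tgfb2 window, both Ltbp1 windows and that of the second Tgfbr1 start held no core. The Smad palindrome GTCTAGAC, in 0.167% of all windows, was in none of the 7, and the GC box GGGCGG, in 32.7%, was found 5 times in Tgfb1 and 2 times in Tgfbr1. These matches describe the letters only.

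Across the 7 genes, the ligands Tgfb2 and Tgfb3 had lower mean levels with TCDD at all 3 times, Tgfb1 had differences of -0.10, -0.15 and -0.30, those of the receptors and Ltbp1 lay between -0.35 and 0.40 with no single direction, and Ccn2 differed by up to 3.4 between the arrays of a group. After the filter 10 of the 13 probe sets were tested, covering all 7 genes. None of the 10 passed limma's test at an adjusted p under 0.05 with TCDD at 2 h, 4 h or 6 h or on the average of the 3 times, where 0.0189%, 0.0126%, 0.00631% and 0.0947% of all 15844 tested probe sets passed. At an unadjusted p under 0.05, 4 of the 10 lay below solvent on the average, against 3.36% of all tested in either direction. They were Tgfb3 and all 3 probe sets of Tgfb2. The Tgfb2 probe sets share 1 target sequence and are not separate evidence. At single times the corresponding counts were 2 at 2 h (1.49% of all), 0 at 4 h (2.17%) and 1 at 6 h (2.15%), all of them Tgfb2. With the array set as a block again none of the 10 passed in limma. The shares of all passing were 0.0631%, 0.0442%, 0.0505% and 0.29% at 2 h, 4 h, 6 h and on average. The same 4 had an unadjusted p under 0.05 on the average, where 5.16% of all did. At single times the counts in that fit were 2 at 2 h (2.7% of all), 2 at 4 h (2.8%) and 1 at 6 h (3.72%). Those at 4 h were Tgfb3 and Tgfb2 on 1450922_a_at, and the rest were Tgfb2. The change of the TCDD effect over time, a moderated F-test in limma, passed for none of the 10 and 0% of all, with 0 of the 10 and 0.663% of all at an unadjusted p under 0.05.

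**Figure D1:**
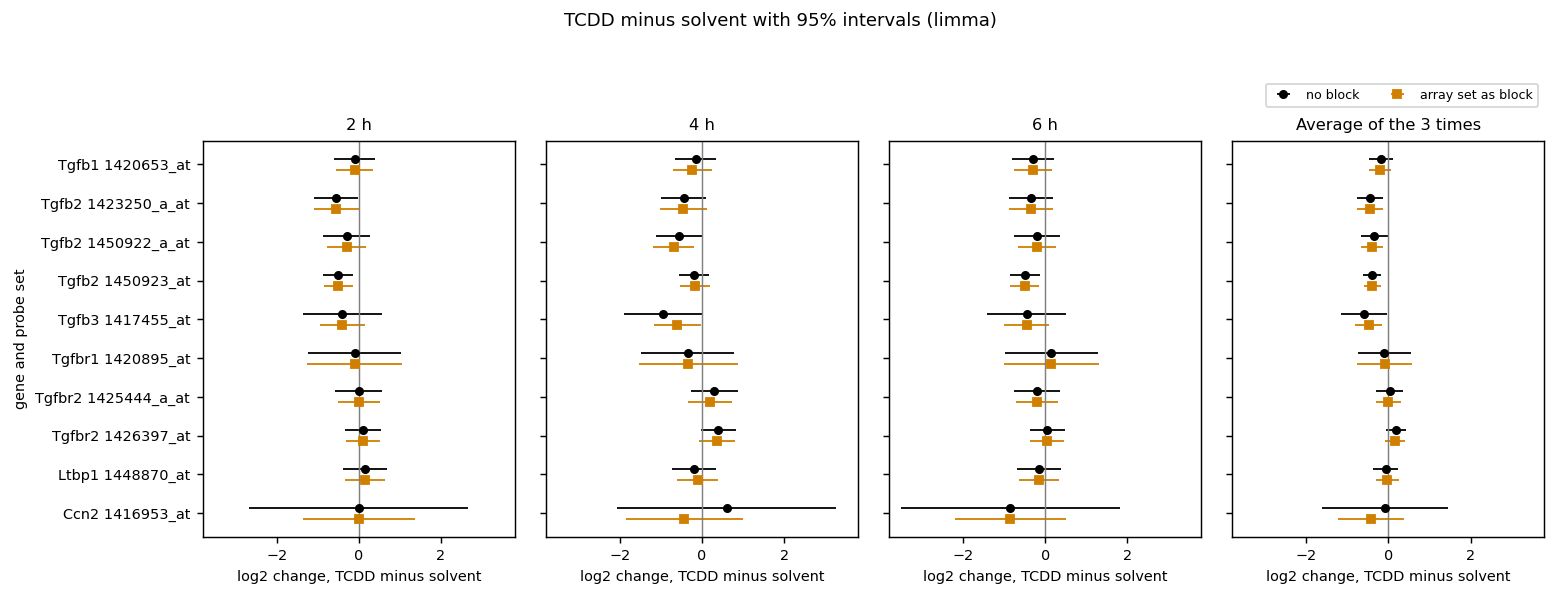
Difference in log2 level between TCDD and solvent for the 10 tested probe sets at each time and on average; points are limma estimates and lines 95% intervals, black without a block and orange with the array set as a block. The Ccn2 intervals are the widest, from -2.67 to 2.67 at 2 h without the block and from -1.36 to 1.36 with it, and on the average the intervals of Tgfb3 and the 3 Tgfb2 probe sets lie below 0.

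Tgfb2, a ligand that needs the co-receptor betaglycan for tight receptor binding, had 3 probe sets, which the platform assigns to 1 target accession and so are not separate evidence. On 1450923_at the solvent arrays read 4.8 and 4.8 at 2 h, 4.2 and 4.4 at 4 h, and 4.7 and 4.5 at 6 h, and the TCDD arrays 4.4 and 4.2, 4.2 and 4.0, and 4.1 and 4.1. The groups did not overlap at 2 h or 6 h, and at 4 h they met at 4.2. The average difference was -0.40 ± 0.09 (SE) in log2, or 1.32-fold lower, with a 95% interval from -0.61 to -0.19 and an adjusted p of 0.43 in limma (unadjusted p = 0.0018). 1423250_a_at read 4.7 and 5.3, 4.5 and 4.3, and 4.7 and 4.5 with solvent and 4.3 and 4.6, 3.7 and 4.2, and 4.3 and 4.2 with TCDD. The groups of this probe set did not overlap at any time, and its average difference was -0.45 ± 0.14 with an adjusted p of 0.929 in limma. 1450922_a_at read 4.1 and 5.0, 4.2 and 4.3, and 4.2 and 4.4 with solvent and 4.2 and 4.3, 3.8 and 3.6, and 4.1 and 4.1 with TCDD. Its groups overlapped at 2 h and not at 4 h or 6 h, and its average difference was -0.35 ± 0.15 with an adjusted p of 1 in limma. Each of the 6 TCDD arrays lay below the solvent mean of its time on all 3 probe sets. With the array set as a block the averages were -0.45, -0.40 and -0.39 for 1423250_a_at, 1450922_a_at and 1450923_at, with adjusted p-values of 0.547, 0.534 and 0.244 in limma. Within the larger set 1450923_at differed by -0.40, -0.30 and -0.60 at 2 h, 4 h and 6 h. Within the smaller set it differed by -0.60 at 2 h and -0.40 at 6 h. Each of these is a difference between single arrays, with the mean of both solvent arrays at 4 h. All of these levels lay near the filter value of 3.98, where RMA values compress differences. The 3 probe sets went together over the 12 arrays, with r of 0.81, 0.71 and 0.63.

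Tgfb3, a ligand known from palate fusion and epithelial transitions, had 1 probe set, 1417455_at. Its solvent arrays read 7.0 and 7.0 at 2 h, 7.4 and 7.3 at 4 h, and 7.3 and 6.4 at 6 h, and its TCDD arrays 6.9 and 6.3, 6.0 and 6.8, and 7.0 and 5.8. The TCDD arrays lay below both solvent arrays at 2 h and at 4 h and overlapped them at 6 h. The differences were -0.40, -0.95 and -0.45, each ± 0.43, and the average was -0.60 ± 0.25, or 1.52-fold lower, with a 95% interval from -1.15 to -0.05 and an adjusted p of 1 in limma. Without 1 of the arrays the differences ran from -0.70 to -0.10 at 2 h, from -1.35 to -0.55 at 4 h and from -1.05 to 0.15 at 6 h, the last turning sign without the second 6 h TCDD array. TCDD arrays were below the solvent mean of their time in 5 of 6 cases. The level also moved with the array set: in the 5 groups with an array of each set, smaller-set minus larger-set array was -0.6 in TCDD at 2 h, -0.8 in TCDD at 4 h, -0.9 in solvent and -1.2 in TCDD at 6 h, and 0 in solvent at 2 h. Within the larger set TCDD minus solvent was -0.10, -0.55 and -0.30 at 2 h, 4 h and 6 h. Within the smaller set it was -0.70 at 2 h and -0.60 at 6 h, with no solvent array at 4 h. All were below 0, but each is a difference between single arrays, with the mean of both solvent arrays at 4 h. With the set as a block the average was -0.48 ± 0.14 with an adjusted p of 0.493 in limma.

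Tgfb1, the ligand most widely made by immune and stromal cells, read on 1420653_at 6.1 and 6.4, 6.2 and 6.2, and 5.9 and 5.9 with solvent and 6.1 and 6.2, 6.4 and 5.7, and 5.7 and 5.5 with TCDD at 2 h, 4 h and 6 h. The groups overlapped at 2 h and 4 h, and at 6 h both TCDD arrays were lower. The average difference was -0.18 ± 0.13 with a 95% interval from -0.47 to 0.11 and an adjusted p of 1 in limma, and 5 of 6 TCDD arrays were below the solvent mean of their time. The level was lowest at 6 h in both treatments, with differences from 2 h of -0.35 ± 0.22 with solvent and -0.55 ± 0.22 with TCDD, and neither passed in limma (adjusted p = 0.97 and 0.603).

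**Figure D2:**
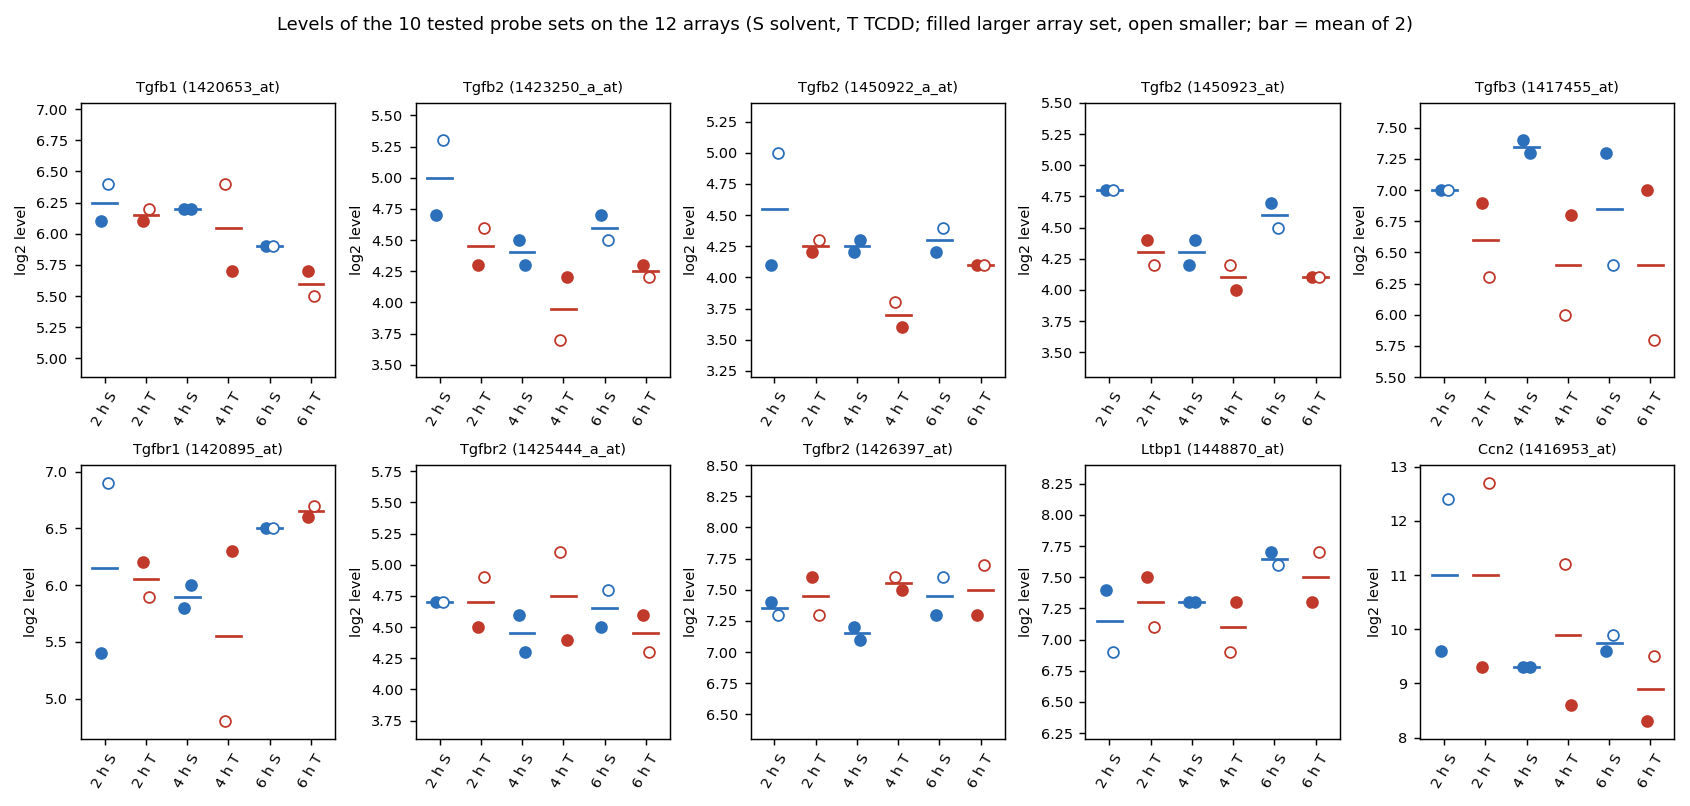
Log2 level of the 10 tested probe sets on each of the 12 arrays by time and treatment; blue is solvent, red is TCDD, filled points are arrays of the larger set, open points those of the smaller set, bars are means of 2 arrays, and each panel has its own axis range. The 3 Tgfb2 panels show every TCDD mean below the solvent mean of its time, and in the Ccn2 panel the open points at 2 h (12.4 and 12.7) and in TCDD at 4 h (11.2) stand above the filled ones.

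Ltbp1, which anchors latent ligand in the matrix, read on 1448870_at 7.4 and 6.9, 7.3 and 7.3, and 7.7 and 7.6 with solvent and 7.5 and 7.1, 6.9 and 7.3, and 7.3 and 7.7 with TCDD. The treatments overlapped or touched at every time, and the average difference was -0.07 ± 0.14 with a 95% interval from -0.37 to 0.24. In solvent both 6 h arrays were above both 2 h arrays, by 0.50 ± 0.24, with an adjusted p of 0.97 in limma.

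The type I receptor Tgfbr1 was measured above the filter by 1420895_at, which read 5.4 and 6.9, 5.8 and 6.0, and 6.5 and 6.5 with solvent and 6.2 and 5.9, 4.8 and 6.3, and 6.6 and 6.7 with TCDD. Replicates lay as far apart as 1.5 in solvent at 2 h and in TCDD at 4 h, with the smaller-set array the higher at the former and the lower at the latter, and at 6 h both TCDD arrays were above both solvent arrays, by 0.15 ± 0.50. The average difference was -0.10 ± 0.29, with a 95% interval from -0.75 to 0.55. It was 0.15 without the second and -0.35 without the first solvent array at 2 h. The other probe sets of this gene, 1420893_a_at and 1420894_at, lay below the filter, at 3.0 to 3.6 and 2.9 to 3.3, and did not follow 1420895_at over the arrays (r = -0.17 and 0.24).

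The type II receptor Tgfbr2 had 2 tested probe sets. 1426397_at read 7.4 and 7.3, 7.2 and 7.1, and 7.3 and 7.6 with solvent and 7.6 and 7.3, 7.6 and 7.5, and 7.3 and 7.7 with TCDD. The groups separated at 4 h, with TCDD higher by 0.40 ± 0.19 and an adjusted p of 0.973 in limma, and overlapped at 2 h and 6 h. The average difference was 0.18 ± 0.11, with a 95% interval from -0.07 to 0.43. The second probe set, 1425444_a_at, read 4.3 to 4.8 with solvent and 4.3 to 5.1 with TCDD, differed by 0.03 ± 0.15 on average, and was only weakly related to the first (r = 0.14 over 12 arrays). The third, 1422019_at, lay below the filter at 2.5 to 2.8.

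Ccn2, a secreted matricellular protein of wound repair and fibrosis, covered the widest range of the 10 probe sets, from 8.3 to 12.7 on 1416953_at, a 21.1-fold span. Its solvent arrays read 9.6 and 12.4 at 2 h, 9.3 and 9.3 at 4 h, and 9.6 and 9.9 at 6 h, and its TCDD arrays 9.3 and 12.7, 11.2 and 8.6, and 8.3 and 9.5. The 3 highest readings came from array 2 of solvent and of TCDD at 2 h and from array 1 of TCDD at 4 h, and the treatments overlapped at 2 h and 4 h, while at 6 h both TCDD arrays lay below both solvent arrays. The differences were 0.00, 0.60 and -0.85, each ± 1.20, and the average was -0.08 ± 0.69 with a 95% interval from -1.63 to 1.46. With the array set as a block they were 0.00 ± 0.60, -0.43 ± 0.63 and -0.85 ± 0.60, with an average of -0.43 ± 0.35 and an interval from -1.22 to 0.37. In all 5 groups that held an array of each set, the smaller-set array was the higher, by 2.8 in solvent and 3.4 in TCDD at 2 h, by 2.6 in TCDD at 4 h, and by 0.3 in solvent and 1.2 in TCDD at 6 h. Of all tested probe sets, 7.56% were higher on the smaller-set array in all 5 groups and 8.89% were lower, so this pattern was shared by many other genes. The mean was 11.14 over the 5 arrays of the smaller set and 9.14 over the 7 of the larger. Of the marker lists, the mean of the thymocyte list had an r of 0.68 with Ccn2, the cortical 0.63, the medullary 0.61, the endothelial 0.54, the macrophage and platelet list 0.38 and the fibroblast list -0.61 over the 12 arrays; their part in the result was not tested. The thymocyte list means lay between 3.88 and 4.15 and the endothelial between 3.41 and 3.66, near or below the filter value of 3.98, with 4 of 8 and 6 of 7 genes below it.

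**Figure D3:**
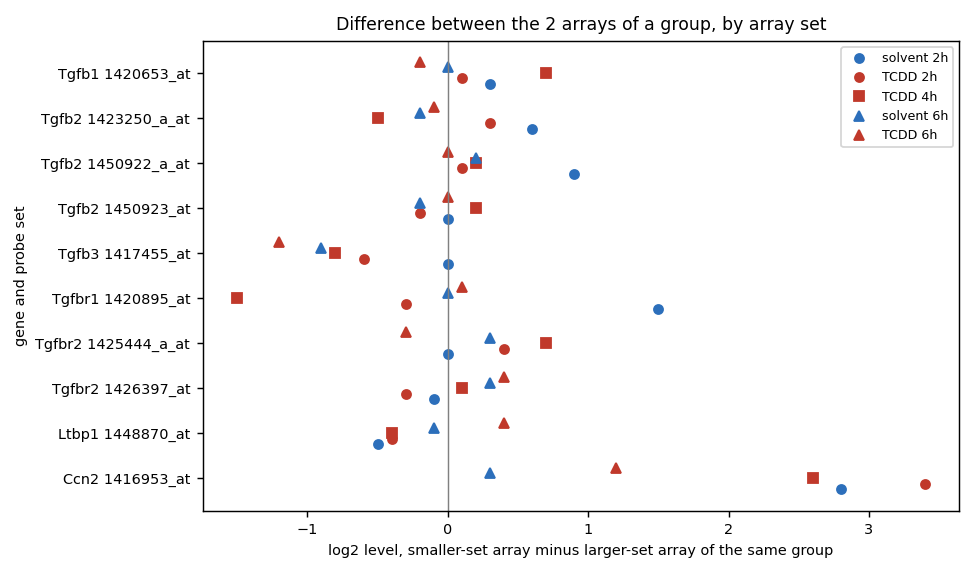
Log2 level on the smaller-set array minus that on the larger-set array of the same group, for the 10 tested probe sets and the 5 groups that held both; colour is treatment and marker shape is time. The Ccn2 differences run from 0.3 to 3.4 and the Tgfb3 differences from -1.2 to 0, while the points of Tgfbr1 lie from -1.5 to 1.5.

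Over time, none of the 10 probe sets passed in limma from 2 h to 4 h or 6 h in either treatment, and neither did any other probe set (0% in each comparison). At an unadjusted p under 0.05 the counts in limma were 2 of 10 for solvent at 4 h (1.81% of all), 0 for solvent at 6 h (2.82%), 0 for TCDD at 4 h (1.38%) and 1 for TCDD at 6 h (8.1%). The 2 in solvent at 4 h were Tgfb2, with -0.60 ± 0.24 on 1423250_a_at and -0.50 ± 0.16 on 1450923_at, and neither passed (adjusted p = 1 in limma). The 1 in TCDD at 6 h was Tgfb1. Ccn2 at 6 h minus 2 h was -2.10 ± 1.20 with TCDD and -1.25 ± 1.20 with solvent. With the array set as a block the values stayed the same and their errors became 0.60, with adjusted p-values of 0.292 and 0.79 in limma. These comparisons share the 2 h arrays of each treatment.

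The arrays were also compared directly, by counting probe sets whose levels did not overlap between treatments at a time. At 2 h, 0 of the 10 were higher with TCDD on both arrays and 3 were lower, against 7.16% and 6.68% of all tested. At 4 h, 1 was higher and 3 were lower (7.95% and 11.1% of all), and at 6 h, 1 was higher and 5 were lower (9.69% and 9.66%). The lower probe sets were Tgfb2 and Tgfb3 at 2 h and 4 h, and Tgfb1, Tgfb2 and Ccn2 at 6 h, with Tgfb2 counted 2 times at 2 h and at 4 h and 3 times at 6 h. Over all 6 TCDD against all 6 solvent arrays, 0 of the 10 separated without overlap, against 0.29% of all tested probe sets.

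The rest of the pathway was followed in 5 lists of genes, each gene given by its brightest probe set. With the array set as a block, the list medians on the average of the 3 times were, in the order below, -0.12, -0.03, 0.00, -0.07 and -0.09. All tested probe sets had -0.01 in that fit. Values below are from the fit without a block unless said otherwise. Without a block none of the list genes passed in limma in the TCDD comparisons at single times or on average. On the average of the 3 times, the list of ligand storage and activation, which holds matrix proteins, integrins and proteases that keep or release latent ligand, had 2 genes above 0, 16 below and 1 at 0 of 19 tested, with a median of -0.17 beside 0.00 for all tested probe sets, of which 44% were above 0 and 49.8% below. Its members farthest from 0 were Adamts1, a secreted protease of the matrix, at -1.03 ± 0.34, Ltbp2, a relative of Ltbp1, at -0.47 ± 0.32, and Mmp14, a membrane-bound metalloproteinase, at -0.42 ± 0.21, each with an adjusted p of 1 in limma. With the array set as a block these averages were -0.97, -0.29 and -0.32. Adamts1 read 6.9 and 8.1, 7.2 and 7.2, and 7.8 and 6.5 with solvent and 6.0 and 6.6, 5.2 and 6.8, and 6.8 and 6.1 with TCDD, so the treatments separated at 2 h and 4 h and overlapped at 6 h.

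The list of other receptors and co-receptors had a median of 0.00 over 9 genes, 4 above 0 and 3 below. Its values stayed between -0.17 and 0.07, with the activin receptors Acvr1b and Acvr1 at -0.17 and Acvr2b at -0.12. Another tested probe set gave 0.13 for Acvr1b and 0.00 for Acvr1. With the array set as a block the brightest probe sets of Acvr1b, Acvr1 and Acvr2b averaged -0.03, -0.14 and -0.09. Smads and their partners had 6 genes above 0 and 5 below of 13 and a median of 0.00. Dab2, an endocytic adaptor that binds TGF-beta receptors and Smads, stood at the upper end with 0.72 ± 0.16 and an adjusted p of 0.334 in limma, on levels of 7.2 and 7.8, 6.3 and 6.6, and 6.9 and 7.0 with solvent and 8.0 and 7.5, 7.4 and 8.0, and 7.5 and 7.7 with TCDD. Dab2 was higher on both TCDD arrays than on both solvent arrays at 4 h and 6 h, and the 2 h arrays overlapped. The next values from 0 were Tab1, a partner of the kinase TAK1, at -0.20 ± 0.10 and Wwtr1, the coactivator TAZ, at -0.17 ± 0.15.

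Inhibitors and feedback genes had 6 above 0 and 9 below of 15, with a median of -0.03. Smad6, an inhibitory Smad, read 8.0 and 8.7, 7.7 and 7.6, and 7.7 and 7.1 with solvent and 6.9 and 7.4, 6.9 and 7.3, and 7.2 and 6.9 with TCDD. Both TCDD arrays were below both solvent arrays at 2 h and 4 h, the groups overlapped at 6 h, and the average was -0.70 ± 0.17 with an adjusted p of 0.488 in limma. Nedd4l, a ubiquitin ligase of Smads, had an average of 0.53 ± 0.18 and Usp15, a deubiquitinase of the pathway, 0.33 ± 0.21, each with an adjusted p of 1 in limma.

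Genes known to respond to TGF-beta in fibroblasts or epithelium had 13 above 0 and 29 below of 44, with a median of -0.08. The farthest from 0 were Cdkn1a, the cell cycle inhibitor p21, at 1.57 ± 0.35, the cytokine Lif at 0.72 ± 0.40, and Plod2, a lysyl hydroxylase of collagen, at -0.67 ± 0.23, with adjusted p-values of 0.365, 1 and 1 in limma. Cdkn1a read 6.0 and 7.3, 5.8 and 5.9, and 5.6 and 6.6 with solvent and 8.9 and 9.8, 8.3 and 6.6, and 6.1 and 6.9 with TCDD. It was higher on both TCDD arrays at 2 h and 4 h and overlapped at 6 h. With the array set as a block Cdkn1a was the 1 gene of the 5 lists that passed in limma: it rose by 2.70 ± 0.21 at 2 h (adjusted p = 0.00184) and by 1.38 ± 0.12 on average (adjusted p = 0.00194), and within TCDD it fell by 2.85 ± 0.21 from 2 h to 6 h (adjusted p = 0.00332). Its other probe set, 1421679_a_at, gave 0.35 ± 0.19 on average in that fit with an adjusted p of 0.998 in limma. At 2 h that probe set gave 1.25 ± 0.32 (adjusted p = 0.664 in limma), and at 4 h and 6 h -0.04 and -0.15. In the same fit Lif averaged 0.52 and Plod2 -0.62. Bhlhe40 of this list, at -0.45 without the block, stood at -0.64 with it. Cdkn1a is a target of many other inputs than TGF-beta, among them p53.

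**Figure D4:**
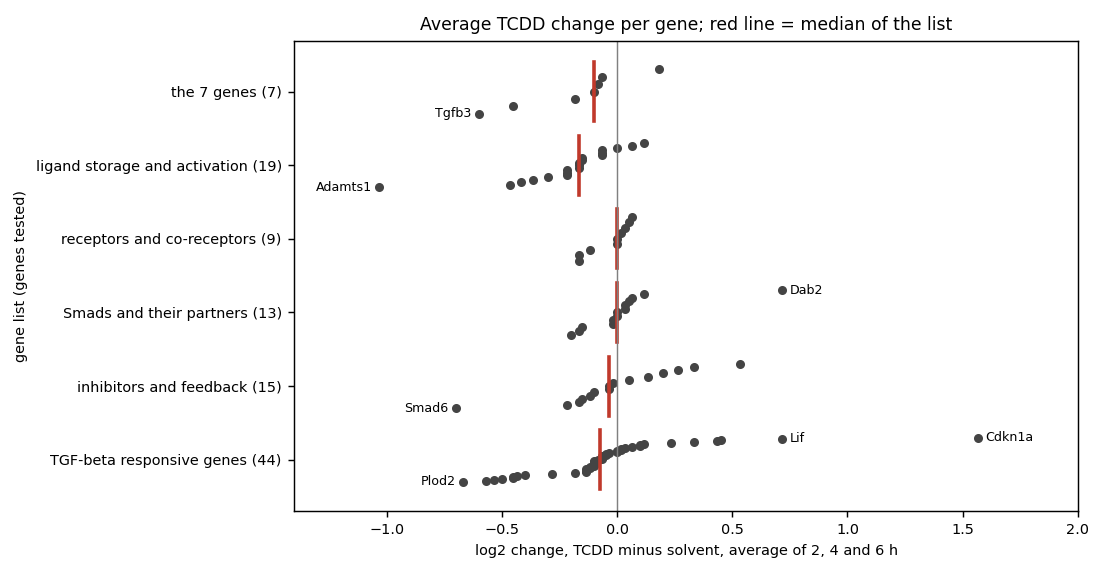
Log2 difference between TCDD and solvent, averaged over 2, 4 and 6 h, for each tested gene of the 7 members and the 5 pathway lists; red lines are medians, and genes at least 0.60 in size are named. Most points lie near 0, the storage list has 16 of 19 genes below 0, and Cdkn1a lies farthest out at 1.57.

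Ccn2 was set against the rest of the pathway over the arrays. Pearson r with Ccn2 over the 12 arrays was above 0.8 for 10 of the 44 responsive genes (22.7%), and for 1.94% of all 15843 other tested probe sets. This threshold and the genes named by it were chosen with the values in view. It was below 0 for 18 of the 44, among them the collagens Col1a1 (-0.74), Col1a2 (-0.67) and Col3a1 (-0.66), the matrix protein Postn (-0.68) and the transcription factor Zeb2 (-0.79). The list median was 0.28 beside 0.04 for all. The closest were Atf3 (0.96), Itga5 (0.94), Hbegf (0.92) and Bhlhe40 (0.92), and the other 6 lay between 0.82 and 0.88, among them Ccn1, a close relative of Ccn2, at 0.83. Atf3, a stress-induced transcription factor, read 6.8 and 7.0 on the second 2 h arrays of solvent and TCDD and 5.3 on the first TCDD array at 4 h, and 4.1 to 5.1 on the other 9 arrays. Hbegf, a ligand of the EGF receptor, read 9.1, 8.7 and 7.8 on those 3 arrays and 6.1 to 7.7 on the others. Several of these are immediate-early genes that serum and stress also induce. Thbs1, which releases latent ligand, had an r of 0.84, the inhibitor Smad7 0.85, and the receptor Acvr1b -0.92. Each was the 1 gene of its list beyond 0.8 or -0.8, of 19, 15 and 9 tested. The list medians were -0.38 for storage and activation, 0.36 for inhibitors and feedback and -0.12 for other receptors. Of all other tested probe sets, 1.24% were below -0.8. The arrays behind these correlations share treatment, time and array set, and the points are few, so r is a description only.

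**Figure D5:**
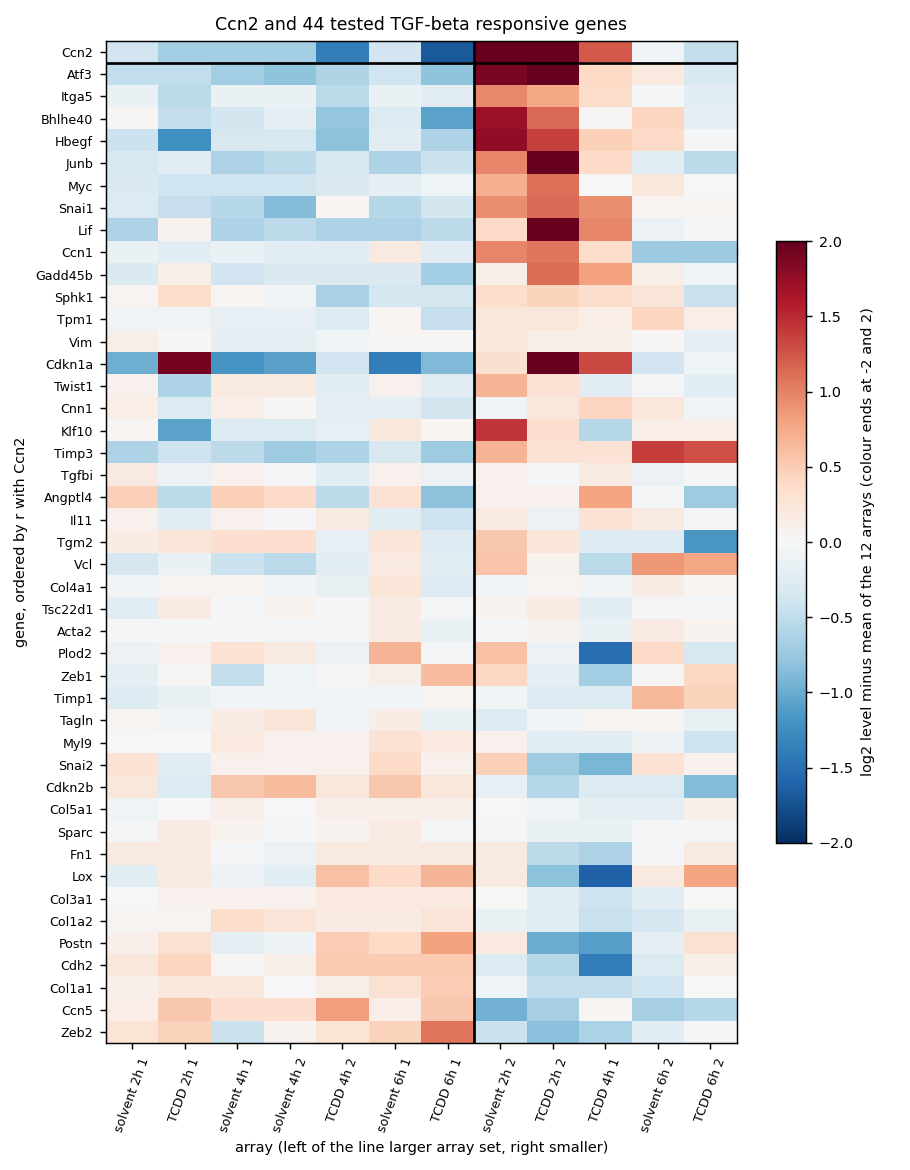
Log2 level of Ccn2 and the 44 tested TGF-beta responsive genes minus the mean of each gene over the 12 arrays, with genes ordered by r with Ccn2 and arrays ordered by array set; red is above and blue below the mean, and colour ends at -2 and 2. The genes at the top, from Atf3 to Gadd45b, are red on the second 2 h arrays, and most are paler or blue on the 7 arrays of the larger set.

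The members were little alike among themselves. Over the 12 arrays the pairs farthest from 0 were Tgfb3 with Tgfbr2 (r = -0.76), Tgfb1 with Ltbp1 (-0.71) and Tgfb1 with Ccn2 (0.64), and Ccn2 had -0.61 with Ltbp1, -0.34 with Tgfb3 and 0.38 with Tgfb2. Among all named genes, the 3 most like each member by Pearson r over the 12 arrays were Hcfc1r1 (0.963), Ptms (0.957) and Cystm1 (0.947) for Tgfb1, and Medag (0.956), Fam110c (0.952) and Cited2 (0.921) for Tgfb2. For Tgfb3 they were Slc4a2 (0.963), Marcks (0.957) and Dag1 (0.951), and for Ccn2 Nt5dc3 (0.974), Mcl1 (0.973) and Lmcd1 (0.971). For the receptors they were Dlg1 (0.959), Akirin1 (0.959) and Zfp281 (0.957) with Tgfbr1, and Pinx1 (0.880), Pa2g4 (0.857) and Rpl7a (0.850) with Tgfbr2, while for Ltbp1 they were Med19 (0.953), Mcm6 (0.932) and Mtap (0.919). Tgfb2 was represented by 1423250_a_at, its brightest probe set. Medag, the gene closest to it, ran from 4.3 to 6.2 and Mcl1, an anti-apoptotic Bcl2 relative, from 8.2 to 9.4. These genes were the closest of all tested over only 12 arrays that share treatment, time and array set, and no test was made of them.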

How the data were processed

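Titles set the groups, 6 of 2 arrays. The authors deposited log2 expression values for each probe set; the submitters' processing notes name RMA without a version, a method that corrects background, equalises distributions across arrays and summarises probes. Each array had a median of 5.1, which hides any change common to all genes. Depth does not apply to arrays: 2 per group limit the precision. All 12 value columns were used.

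Of 22690 probe sets, 64 controls were left out. Symbols came from the platform annotation (20380 probe sets with 1 symbol, 691 with several, 1555 with none); 20351 were matched to RefSeq GRCm38.p6, which changed 0. Probe sets with a mean at or above the 30th percentile (3.98) were tested, 15844 in all, with limma 3.58.1 in R 4.3.3: a mean per group, 6 residual degrees of freedom, variances moderated by empirical Bayes (prior SD 0.218 with 3.81 degrees of freedom), two-sided tests and Benjamini-Hochberg adjustment within each comparison. The code was tested on simulated data. Array sets came from complete linkage clustering, cut into 4, the largest cluster against the rest.

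Members and lists were chosen with earlier results of these data known. Named were all member probe sets, the 3 genes of each list farthest from 0 on average, every list gene that passed without a block or with the set block, the 3 genes most like each member, and Cyp1a1; genes named for their r with Ccn2, and for calls under other alternatives, were chosen after their values were seen. First minus second array differences correlated between treatments with r of 0.37, 0.16 and 0.71 at 2, 4 and 6 h, weakly at 4 h. Pairing by the replicate numbers in the titles was therefore used in alternative fits, and the main fit was unpaired. Alternatives were other filters, normalizations, variance models, blocks and controls, and leaving out each array; array weights and the set block without the first 4 h TCDD array were added after the data were seen.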

Additional observations from a re-analysis of the deposited data

How the results depend on the processing

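The count of member probe sets past limma's test was 0 in all 9 comparisons and under every alternative run, of 10 tested except 13 without a filter and 6 with the 50th percentile filter, which left out Tgfb2. With a replicate block (arrays paired by number at each time), Tgfb3 averaged -0.60 ± 0.15 (adjusted p = 0.398 in limma) and Tgfb2 on 1450923_at -0.40 ± 0.10 (adjusted p = 0.372), and the block changed no call. Over all alternatives the average of 1450923_at stayed between -0.50 and -0.37 (adjusted p 0.0863 to 1 in limma) and that of Tgfb3 between -0.80 and -0.40 (0.288 to 1). The Ccn2 average of -0.08 kept its sign in 21 of 25 alternatives. It ran from -0.65 without the second 2 h TCDD array to 0.48 without the first.

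The count of list genes past the test, 0 without a block, became 1 at 2 h with the set block, against solvent arrays of all times, and with the set block without the first 4 h TCDD array; 1 on average with either set block; and, within TCDD, 1 from 2 h to 6 h with the set block, and 1 from 2 h to 4 h and 3 from 2 h to 6 h with the set block without that array. Cdkn1a was among them each time, with Trim33 and Gadd45b in the count of 3. Leaving out 1 array gave 0 to 2 at 4 h and 0 to 1 within TCDD from 2 h to 4 h, the higher counts without the second 4 h TCDD array (Plod2 and Itgb1, and Itgb1). Of the 40 member differences between TCDD and solvent, none of which passed, 16 had the other sign under at least 1 alternative. All 16 turned on leaving out 1 array: Tgfb3 at 6 h ran to 0.15, Tgfb2 on 1450922_a_at at 2 h to 0.15, and the Tgfbr1 average to 0.15. Ccn2 at 4 h (0.60) was -0.7 without the first 4 h TCDD array, and it was -0.43 with the set block.

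Probe sets passing on the average numbered 15, and from 8 (no moderation) to 74 (set block without the first 4 h TCDD array) over alternatives; at 2 h 3 and from 0 to 24, at 4 h 2 and from 0 to 59, at 6 h 1 and from 0 to 19, within TCDD 0 and from 0 to 61 at 4 h and 0 to 113 at 6 h. The cause was not tested. With 2 arrays a group, a probe set that did not pass is not shown to be unchanged.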
